A study of Bos taurus with 12 samples.

Results

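The tricarboxylic acid (TCA) cycle was followed through 9 nuclear genes that encode its mitochondrial enzymes. They were CS (citrate synthase), IDH3A and IDH3B (the catalytic and a regulatory subunit of the NAD-dependent isocitrate dehydrogenase), OGDH (the first subunit of the 2-oxoglutarate dehydrogenase complex), SUCLG1 (the alpha subunit of succinyl-CoA ligase), SDHA and SDHB (the flavoprotein and the iron-sulfur subunit of succinate dehydrogenase), FH (fumarase) and MDH2 (mitochondrial malate dehydrogenase). The genes were chosen by symbol, from the RefSeq transcript that each probe of the array names, and all 9 were found among the 12787 genes that received a symbol. They were read by 25 probes, all of which entered the test, and 24 of these stood well above background in every one of the 12 samples. The exception was the dimmer OGDH probe, which failed on 1 CONT array.

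The study asked how the mammary transcriptome of lactating Holstein cows responds to an energy deficit. Biopsies were taken from the same 6 cows in 2 periods: CONT (day 0), with free access to a lactation diet, and REST (day 6), when feed covered 50% of the net energy for lactation requirement (NEL). The description of the series counts 5 cows, whereas the labels name 6. The study's methods state that mastitis led to the exclusion of a Holstein cow, which the labels do not identify. All 6 were kept here, and the fit behind the calls was therefore repeated with 1 cow omitted at a time, but not the comparison of subunit pairs or the correlations between genes. Cows are numbered here, both biopsies of a cow were hybridised on the same slide, and slides 1, 2 and 3 carried cows 1 and 2, cows 3 and 4, and cows 5 and 6. The rear gland that was biopsied alternated between the periods, so gland and period cannot be told apart within a cow. There was no group kept on the full diet until day 6, so time and restriction cannot be told apart either.

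The TCA cycle oxidises the acetyl group of acetyl-CoA in the mitochondrial matrix, and hands the electrons to the respiratory chain as NADH and, through succinate dehydrogenase, directly to ubiquinone. Succinate dehydrogenase is at the same time complex II of that chain. In the lactating ruminant udder, acetate is a main fuel of the cycle, and citrate and isocitrate that leave it serve milk citrate and the NADPH used for milk fat synthesis.

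Signals are given as log2 of the processed intensity minus the 75th percentile of the same array, which is 0 on this scale, and a change is REST minus CONT within a cow. Signal levels are compared within a probe, except in the summed signals of the marker lists, where the brightest probes weigh most. Changes are also compared between probes. The REST array was brighter before this scaling in 6 of 6 cows, by 0.30 ± 0.10 log2 units at the 75th percentile (mean ± SD, n = 6). All changes are therefore relative to the other transcripts of the array. Slide 3 was the dimmest, with a 75th percentile between 73.2 and 117 intensity units against 252 to 390.0 on the other slides. The labelled tissue carried its defining markers: the casein genes CSN1S1, CSN1S2 and CSN3, with LALBA and PAEP, had mean normalized signals of at least 9.53 in both groups on their probes of highest signal. Other probes of these genes were lower, down to 8.70 (CSN1S2 in REST). Because whole biopsies were used, fewer cells of a type and less RNA per cell cannot be told apart.

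Feed restriction was accompanied by lower signals of 6 of the 9 genes: CS, IDH3B, OGDH, SUCLG1, SDHA and MDH2. Each of these was lower in REST in 6 of 6 cows, with mean changes between -0.58 (SDHA) and -0.25 (IDH3B). IDH3A, SDHB and FH did not pass the test, at -0.09, -0.11 and -0.02. A gene was called when its tested probe of highest signal reached an adjusted p under 0.1 in limma, with the cow as a block and Benjamini-Hochberg adjustment over all tested probes. Of the 7932 genes tested in this way, 735 were called lower, which is 9.27%. The median change of the 9 genes was -0.28 and that of all tested genes -0.01.

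By cow, the median of the 9 genes was -0.35, -0.29, -0.22, -0.53, -0.18 and -0.21 for cows 1 to 6, whereas the median of all tested genes stayed between -0.05 and 0.01. By slide, it was -0.37, -0.31 and -0.18, with the smallest change on the dim slide 3. The relation of signal strength to the size of the change was not tested. Compared without pairing, 4 of the 9 genes were called lower (OGDH, SUCLG1, SDHA and MDH2), and in that fit 2.81% of all tested genes were. Calls became fewer without single cows, among the 9 genes and over all genes: 2 of the 9 (SDHA and MDH2) were called lower without cow 1, the same 2 without cow 2, and 1 (SDHA) without cow 4, where 4.74%, 3.29% and 3.59% of all tested genes were called lower.

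**Figure D1:**
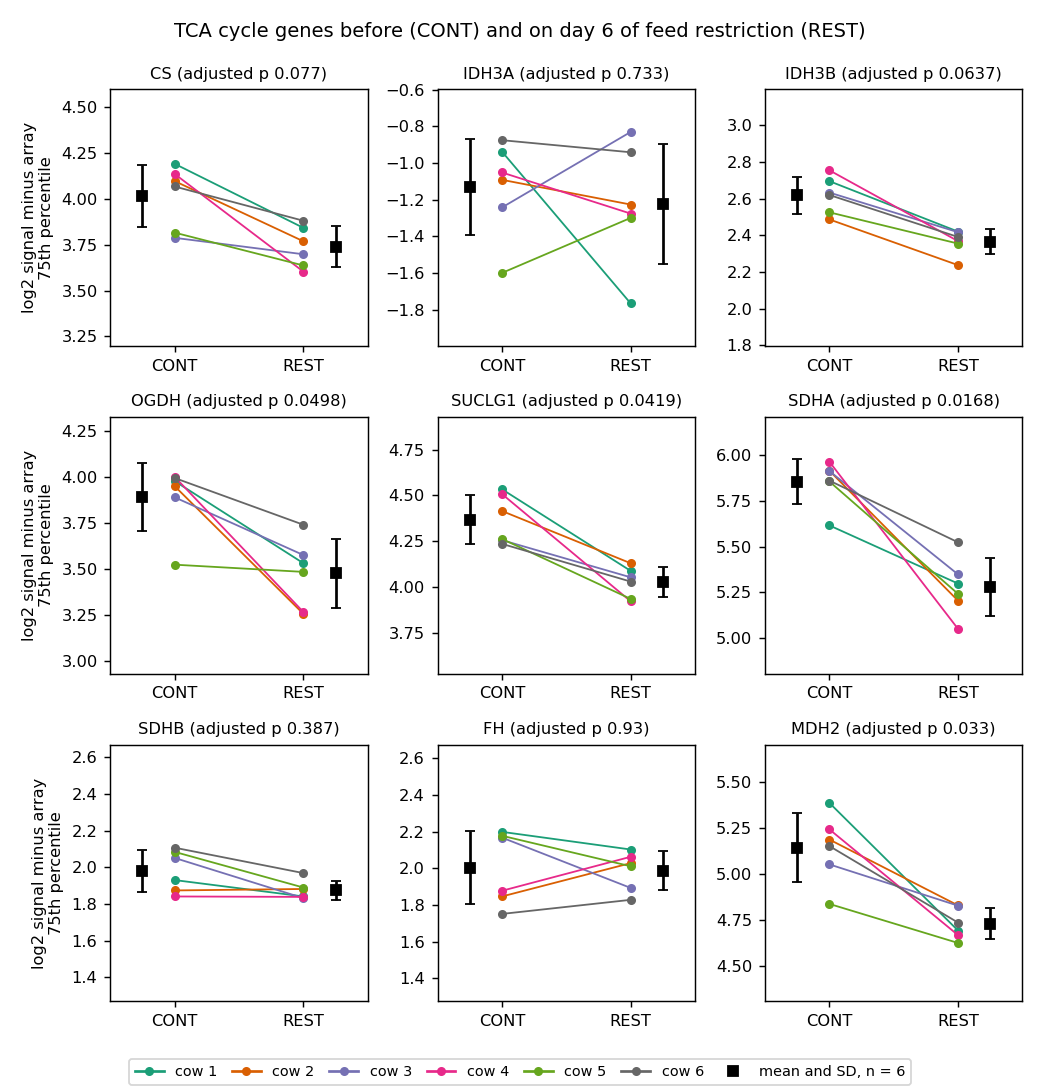
Normalized signal (log2 relative to the 75th percentile of the array, axes of equal span) of the probe of highest signal for each of the 9 genes, in CONT and REST. Coloured lines join both samples of a cow, black squares and bars give the group mean and SD (n = 6), and the adjusted p is that of the paired limma fit; all 6 lines fall for CS, IDH3B, OGDH, SUCLG1, SDHA and MDH2, and lines cross for IDH3A, SDHB and FH.

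CS (NM_001044721) condenses acetyl-CoA with oxaloacetate. Its signals were 3.79 (lowest), 4.08 (median) and 4.19 (highest) in CONT and 3.60, 3.73 and 3.88 in REST, with overlap between the groups through cows 3 and 5, which had the lowest CONT values. The change was -0.28 (SE 0.08, adjusted p 0.0770), from -0.53 in cow 4 to -0.09 in cow 3. The other 2 probes changed by -0.33 and -0.27, in 5 of 6 cows each, without being called (adjusted p 0.106 and 0.202). Without pairing the adjusted p was 0.184, the call was lost without cow 1, 2, 4 or 6, and the adjusted p ranged from 0.0372 to 0.868 over 22 fits and thresholds (the paired fit with the alternative scalings, filters, blocks and thresholds, and the fits without 1 cow). These 22 are not all different fits: the threshold of 0.05 and the deposited table repeat the values of the paired fit.

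IDH3B (NM_001145872), a regulatory subunit, showed the most even change of the 9 genes among cows, from -0.39 to -0.17, with an SD of 0.07. Its signals were 2.49 (lowest), 2.63 (median) and 2.76 (highest) in CONT and 2.24, 2.38 and 2.42 in REST, without overlap. The change was -0.25 (SE 0.07, adjusted p 0.0637; 0.138 without pairing). The gene was read by 4 probes on 2 transcripts, of which 2 probes were called, 1 per transcript, and the changes ranged from -0.28 to -0.10. The call of the first probe was lost without cow 1, 2, 3 or 4, and the adjusted p lay between 0.0231 and 0.697 over 22 fits and thresholds.

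IDH3A (NM_174644), the catalytic subunit of the same enzyme, varied most among cows. The CONT signals were -1.60 (lowest), -1.07 (median) and -0.88 (highest), and those of REST -1.77, -1.25 and -0.83. Individual cows moved from -0.83 (cow 1) to 0.41 (cow 3), with a mean of -0.09 (SE 0.15, adjusted p 0.733). The second probe gave 0.01, and on both probes the cows of slide 1 were lower, by means of -0.48 and -0.46, while slides 2 and 3 had means between 0.09 and 0.33.

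OGDH (NM_001076030) encodes the thiamine-dependent subunit that decarboxylates 2-oxoglutarate. In CONT the signals were 3.52 (lowest), 3.97 (median) and 4.003 (highest), and in REST 3.26, 3.51 and 3.74. The ranges overlapped only through cow 5, the lowest CONT sample, whose change was -0.04, while cows 2 and 4 changed by -0.70 and -0.74. The mean change was -0.42 (SE 0.11, adjusted p 0.0498; 0.0889 without pairing). The dimmer probe gave -0.22 (adjusted p 0.282) and was not called. The call of the first probe was lost without cow 1, 2 or 4, and its adjusted p lay between 0.0157 and 0.417 over 22 fits and thresholds.

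SUCLG1 (NM_001035082), whose product forms the succinyl-CoA ligase with either SUCLG2 or SUCLA2, had signals of 4.24 (lowest), 4.34 (median) and 4.53 (highest) in CONT. In REST they were 3.92, 4.04 and 4.13, below every CONT sample. The change was -0.34 (SE 0.08, adjusted p 0.0419; 0.0742 without pairing), 21.1% lower. It lay between -0.59 in cow 4 and -0.20 in cow 3. The other probe gave -0.36 and was also called (adjusted p 0.0345). The call of the first probe was lost without cow 1, 2 or 4, and its adjusted p lay between 0.0105 and 0.694 over 22 fits and thresholds.

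Succinate dehydrogenase oxidises succinate to fumarate, and SDHA and SDHB are its catalytic subunits. SDHA (NM_174178), which carries the FAD, had signals of 5.62 (lowest), 5.89 (median) and 5.96 (highest) in CONT and of 5.05, 5.27 and 5.52 in REST. The groups did not overlap. The means were 5.85 ± 0.12 and 5.28 ± 0.16 (SD, n = 6), a change of -0.58 (SE 0.10, adjusted p 0.0168), or a signal 32.9% lower. Cow 4 had the largest fall, -0.91, and cow 1 the smallest, -0.32, and the slide means were -0.51, -0.74 and -0.48.

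All 4 SDHA probes were called lower, with changes from -0.62 to -0.48 and adjusted p from 0.0073 to 0.0347. For the first probe the adjusted p was 0.0122 without pairing, and it lay between 0.0013 and 0.101 over 22 fits and thresholds, of which 21 called the gene. The exception was the fit that also tested all dim probes. SDHA was the only one of the 9 genes that stayed called whichever cow was left out.

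SDHB (NM_001040483), the subunit that passes electrons on through iron-sulfur clusters, was read by 1 probe. Its signals were 1.84 (lowest), 1.99 (median) and 2.11 (highest) in CONT and 1.83, 1.86 and 1.97 in REST, so the ranges overlapped. The mean change was -0.11 (SE 0.07, adjusted p 0.387), and 5 of 6 cows were lower. The REST values lay closer together than the CONT values, with an SD of 0.05 against 0.11.

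FH (NM_001075803) hydrates fumarate to malate. Its signals were 1.75 (lowest), 2.02 (median) and 2.20 (highest) in CONT and 1.83, 2.02 and 2.10 in REST. The mean change was -0.02 (SE 0.09, adjusted p 0.930), with 3 cows lower and 3 higher, and its 4 probes gave -0.12 to 0.00. Not passing the test does not show that FH or SDHB did not change.

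MDH2 (NM_001013587) regenerates oxaloacetate, the acceptor with which the cycle starts again. Its signals were 4.84 (lowest), 5.17 (median) and 5.39 (highest) in CONT and 4.62, 4.71 and 4.83 in REST, which did not overlap but nearly touched. The mean changed by -0.42 (SE 0.09, adjusted p 0.0330; 0.0560 without pairing). All 3 of its probes were called lower, with changes between -0.47 and -0.42. The change was -0.70 in cow 1 and -0.21 in cow 5. The call was lost without cow 4, and over 22 fits and thresholds the adjusted p lay between 0.0071 and 0.356.

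Of the 25 probes of the 9 genes, 13 were called lower, against 8.78% of the 19406 probes tested (1703 probes). None was called higher in limma (0 of 25), and none reached an unadjusted p under 0.05 in that direction, in the unpaired fit or the test without moderation either. The mean was lower in REST for 23 probes and higher for 2, 1 of IDH3A and 1 of FH. In 5 probes every REST sample was below every CONT sample (2 of SDHA and 1 each of IDH3B, SUCLG1 and MDH2), compared with 1.5% of all tested probes (292). For SDHA, SUCLG1 and MDH2 every probe was called. Probes of a gene read the same RNA and are not separate evidence.

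**Figure D2:**
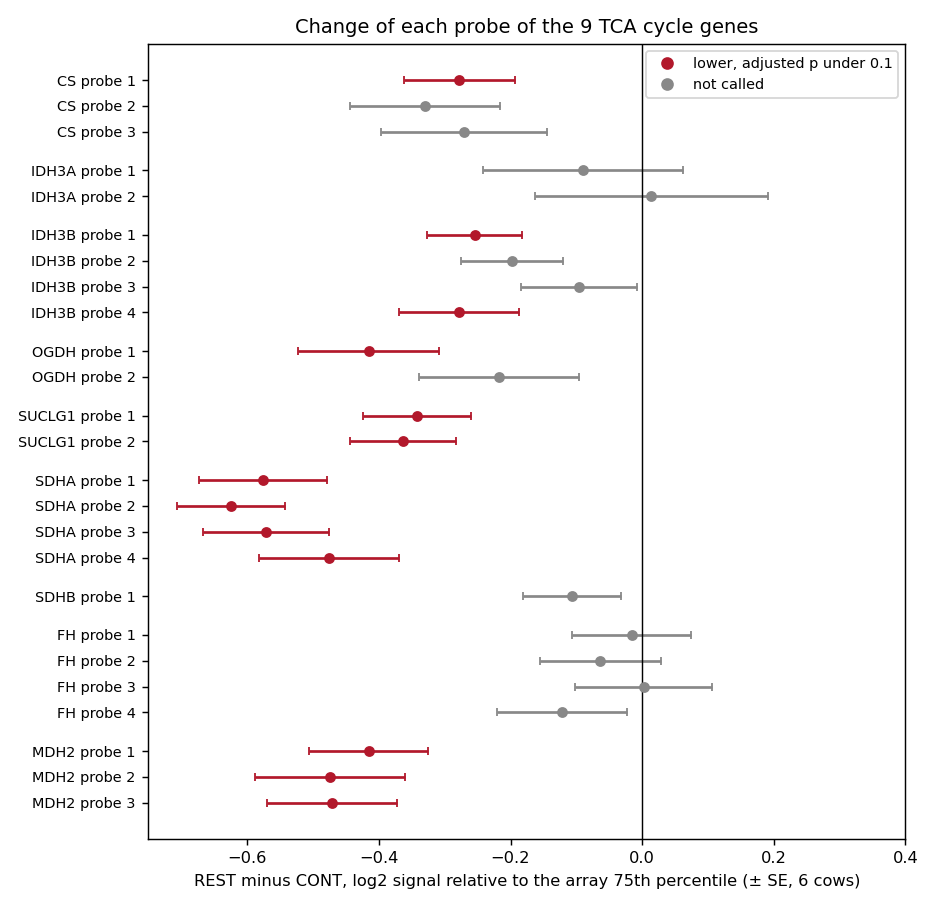
Change (REST minus CONT, log2, point) with its SE from the paired limma fit (bar, 6 cows) for all 25 probes of the 9 genes, numbered within a gene from the highest mean signal. Red marks the 13 probes called lower; the 4 SDHA probes lie between -0.62 and -0.48, and the bars of all but 1 FH probe and of both IDH3A probes cross 0.

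The remaining reactions and subunits of the cycle were taken from a list of 13 further genes, all of which were tested. Here 2 were called lower (IDH2 and SDHAF4), against 9.27% of all tested genes, and none higher. In limma 4 of the 13 had an unadjusted p under 0.05 for a lower signal and 0 for a higher one. Without pairing 1 was called lower, against 2.81%. The median change was -0.12, and 10 of the 13 had a lower mean.

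IDH2, the mitochondrial NADP-dependent isocitrate dehydrogenase, had signals of 0.49 (lowest), 0.71 (median) and 1.102 (highest) in CONT and -0.71, 0.33 and 0.37 in REST. The groups did not overlap, and cow 4 was far below the other REST samples. The change was -0.65 (SE 0.14, adjusted p 0.0310; 0.0952 without pairing), and the second probe gave -0.80 (adjusted p 0.0080). SDHAF4, an assembly factor that helps flavinated SDHA into the complex, fell by 0.31 (adjusted p 0.0606; 0.319 without pairing) in 6 of 6 cows, and its second probe by 0.47. The SDHAF4 call was lost without cow 1, 2, 3 or 4, and its adjusted p lay between 0.0445 and 0.909 over 22 fits and thresholds. For IDH2 that range was 0.0128 to 0.133.

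The other genes did not pass. IDH3G, the other regulatory subunit of isocitrate dehydrogenase 3, gave 0.03. DLST and DLD, the other subunits of the 2-oxoglutarate dehydrogenase complex, gave 0.09 and -0.20, and SUCLA2, the ADP-forming partner of SUCLG1, gave 0.02. SUCLG2, its GDP-forming partner, gave -0.22 (adjusted p 0.190) on the probe of highest signal, while its other 2 probes were called lower at -0.36 and -0.44. The membrane anchors SDHC and SDHD gave -0.23 (adjusted p 0.104) and -0.12 (0.372), and the assembly factors SDHAF1, SDHAF2 and SDHAF3 gave -0.04, -0.06 and -0.17.

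**Figure D3:**
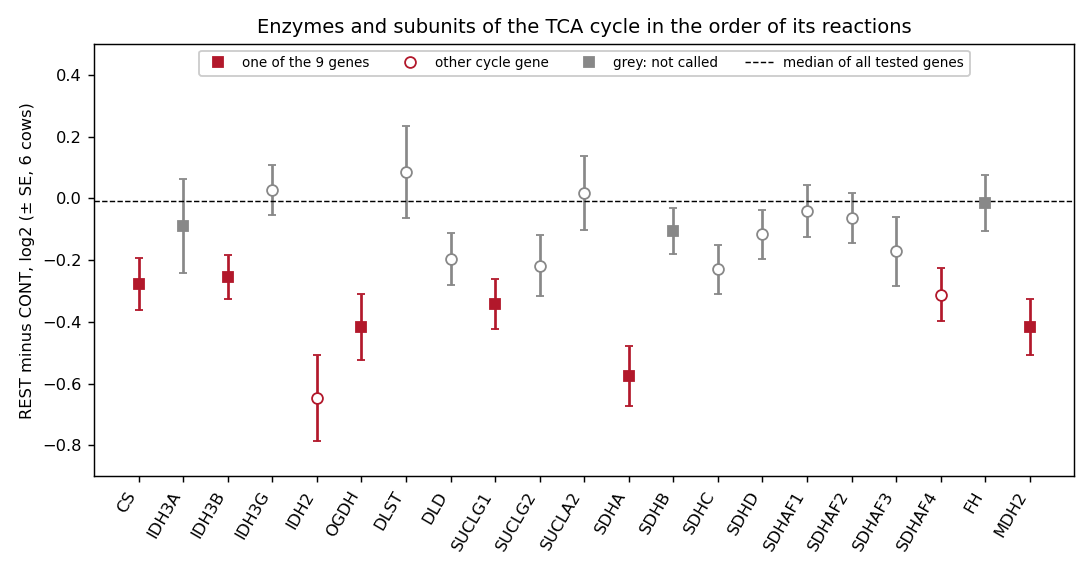
Change (REST minus CONT, log2, point) with its SE (bar, 6 cows) for genes of the cycle in the order of its reactions, by the probe of highest signal. Filled squares are the 9 genes, open circles other cycle genes, red marks genes called lower, grey those not called, and the dashed line is the median of all tested genes (-0.01); called genes lie at several steps of the cycle, with IDH2 and SDHA lowest.

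Within an enzyme, subunits could be compared by the difference of their changes in each cow, which a constant shift per array does not change. Each gene was read by its probe of highest signal, and these probes differ in brightness (CONT means of 3.89 for OGDH and -1.11 for DLST). The differences are therefore between single probes. Other probes were not paired, and some changed by other amounts: -0.22 for OGDH, -0.28 to -0.10 for IDH3B, and -0.36 and -0.44 for SUCLG2. The 4 SDHA probes lay between -0.62 and -0.48. The comparison was made for 12 pairs, chosen after values had been seen, with a two-sided exact sign-flip test over 6 cows, whose smallest possible p is 0.03125, and adjustment over the 12 pairs. SDHA changed by 0.47 log2 units more than SDHB in the downward direction (difference -0.47, 95% interval -0.77 to -0.17, 6 of 6 cows, exact p 0.03125, adjusted 0.0938). The difference from SDHD was -0.46 (-0.72 to -0.20, 6 of 6 cows, with the same exact p) and that from SDHC -0.35 (-0.67 to -0.03, 5 of 6 cows, exact p 0.0625, adjusted 0.150). Between SDHB and SDHC it was 0.12 (-0.03 to 0.27), and between SDHB and SDHD 0.01 (-0.15 to 0.17).

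OGDH was lower than DLST in 6 of 6 cows, by a difference of changes of -0.50 (-0.73 to -0.28, exact p 0.03125, adjusted 0.0938), but the interval of its difference from DLD included 0 (-0.22, -0.57 to 0.14). IDH3B was below IDH3G in 6 of 6 cows (-0.28, -0.47 to -0.09, exact p 0.03125, adjusted 0.0938). IDH3A differed from IDH3B by 0.16 (-0.26 to 0.59) and from IDH3G by -0.12 (-0.70 to 0.46), intervals too wide to place it. For SUCLG1 the difference was -0.36 from SUCLA2 (-0.72 to 0.00, 5 of 6 cows, exact p 0.0938, adjusted 0.161) and -0.12 from SUCLG2 (-0.38 to 0.13). In all, 4 of the 12 pairs reached the smallest p that 6 cows allow. With normexp background correction and the 75th percentile shift, an alternative added for the pairs after the data had been seen, the mean difference was -0.23 between OGDH and DLST, -0.17 between SUCLG1 and SUCLA2, -0.25 between IDH3A and IDH3G and -0.04 between IDH3A and IDH3B, where the sign turned. The small difference between SDHB and SDHD became 0.03 there and 0.04 with normexp and quantile normalization, which gave -0.07 between IDH3A and IDH3G. It stayed within 1.5 times the first value for IDH3B against IDH3G and for SDHA against SDHB, SDHC and SDHD, there and with quantile normalization with or without normexp.

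**Figure D4:**
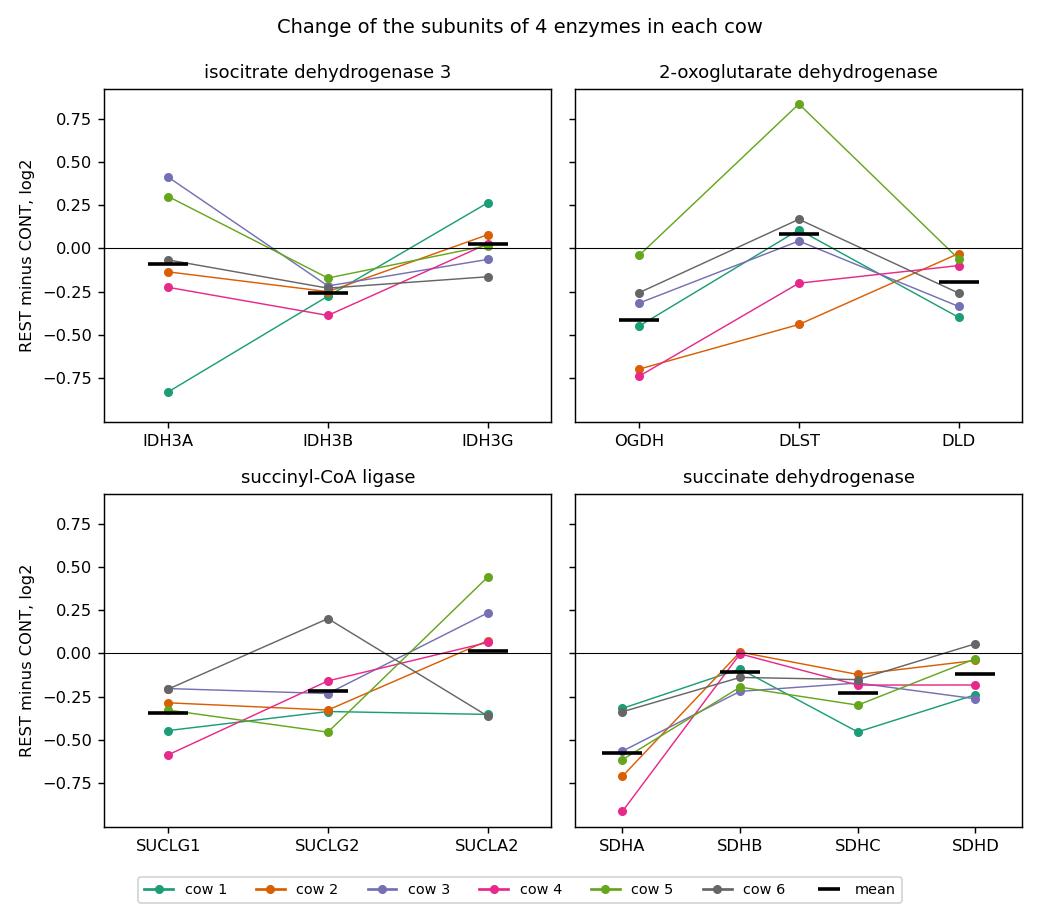
Change (REST minus CONT, log2) of the subunits of 4 enzymes, by the probe of highest signal, with 1 coloured line per cow and the mean as a black bar. SDHA lies below SDHB and SDHD in all 6 cows, OGDH below DLST in all 6 and IDH3B below IDH3G in all 6, while IDH3A spans -0.83 to 0.41.

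Over the 12 arrays, each of the 9 genes was also set against the mean of the other 8, after centring each probe on its own mean. Pearson's r was 0.93 for MDH2, 0.90 for OGDH, 0.87 for SUCLG1 and IDH3B, 0.84 for CS and 0.80 for SDHA. It was 0.34 for SDHB, 0.31 for IDH3A and -0.25 for FH. These are descriptions over arrays that share cows, slides and the period itself. Among 7922 other genes compared, the 5 whose signal ran closest to the mean of the 9 were ATP6V1F (a vacuolar ATPase subunit, r 0.96), TRH (thyrotropin-releasing hormone, 0.95), NDUFA1 (a complex I subunit, 0.95) and the cholesterol synthesis enzymes SQLE (0.95) and NSDHL (0.95), where the median r was 0.04. Without the 2 arrays farthest from the median of that mean, r was 0.91 to 0.94. All 5 were lower in REST, by 0.40 (NDUFA1) to 2.12 (TRH) log2 units. This direction follows from their choice, because the mean of the 9 genes was itself lower in REST, and is no separate result.

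Enzymes that run related reactions in the cytosol were tested for 3 genes. IDH1, the cytosolic NADP-dependent isocitrate dehydrogenase that supplies NADPH in the ruminant udder, fell by 0.87 (SE 0.23, adjusted p 0.0561; 0.111 without pairing). MDH1 (cytosolic malate dehydrogenase) fell by 0.41 (SE 0.10, adjusted p 0.0407; 0.0645 without pairing), and its second probe by 0.63. Both were lower in 6 of 6 cows. ACO1, the cytosolic aconitase, gave 0.14 (adjusted p 0.373). The IDH1 call was lost without cow 1, 2 or 4 and the MDH1 call without cow 4, and over 22 fits and thresholds the adjusted p lay between 0.0236 and 0.169 and between 0.0098 and 0.412, respectively.

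Of 18 genes that feed or drain the cycle, 16 were on the array with a symbol and 12 were tested. Of these, 3 were called lower, against 9.27% of all tested genes, and 11 of 12 had a lower mean (median -0.17), as did 4095 of the 7932 genes tested. PC (pyruvate carboxylase) was not called by its probe of highest signal (-0.29, adjusted p 0.192 in limma), while its second probe was called lower (-0.43, adjusted p 0.0963). GOT2, the mitochondrial aspartate aminotransferase that exchanges oxaloacetate with aspartate and 2-oxoglutarate with glutamate, had CONT and REST means of 3.65 ± 0.04 and 3.13 ± 0.06 (SD, n = 6). Its change was -0.51 (SE 0.07, adjusted p 0.0080; 0.0064 without pairing), all 3 probes were called, and it was called in 22 of 22 fits and thresholds, with an adjusted p of at most 0.0711. The E1 subunits of the pyruvate dehydrogenase complex, which makes acetyl-CoA from pyruvate, fell by 0.45 (PDHA1, adjusted p 0.0365; 0.0528 without pairing) and 0.38 (PDHB, adjusted p 0.0350; 0.111 without pairing). The PDHA1 call was lost without cow 2 or 4 and the PDHB call without cow 2, and over 22 fits and thresholds the adjusted p reached 0.298 and 0.501.

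A further list held transcripts for the organelle at large. Of its 17 genes, for outer membrane channels, protein import, mitochondrial DNA upkeep and regulators, 13 were tested, and their median change was 0.00, with 7 lower and 6 higher. None was called lower in limma, with or without pairing (against 9.27% and 2.81% of all tested genes), and 1 had an unadjusted p under 0.05 in that direction. ESRRA, a nuclear receptor of mitochondrial genes, was called higher at 0.42 (SE 0.11, adjusted p 0.0497; 0.257 without pairing) in 6 of 6 cows, where 6.95% of all tested genes were called higher. That call was lost without cow 1, 2 or 4, and the adjusted p lay between 0.0033 and 0.257 over 22 fits and thresholds. PPARGC1A, a coactivator of mitochondrial biogenesis, gave -0.85 with a wide spread (SE 0.30, adjusted p 0.108). The channels VDAC1, VDAC2 and VDAC3 gave -0.08, 0.05 and -0.11, and the import receptors TOMM20 and TOMM22 gave 0.15 and 0.22.

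Among relatives of OGDH and enzymes of its lipoyl cofactor, 6 of 8 were tested and 1 was called lower, against 9.27% of all tested genes. BCKDHA, the E1 alpha subunit of the branched-chain 2-oxoacid dehydrogenase, fell by 0.74 (SE 0.11, adjusted p 0.0096; 0.0064 without pairing), in 6 of 6 cows and on both probes, and was called in 22 of 22 fits and thresholds, with an adjusted p of at most 0.0770. Its partner subunits BCKDHB and DBT gave -0.19 and -0.07 on the probe of highest signal (the second DBT probe was called lower, at -0.37), and LIAS, LIPT1 and DHTKD1 gave -0.25, 0.13 and 0.01.

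Markers of some cell types moved between the periods, and their part in these results was not tested. The marker calls are those of the paired fit, in which 9.27% of all tested genes were called lower and 6.95% higher. Without pairing, VWF was the only one of these markers that was called. Of 9 tested markers of milk-secreting luminal epithelium, CSN1S1 (-0.26) and CSN3 (-0.28) were called lower and KRT8 (0.72) and KRT18 (0.52) higher, although 1 of 3 KRT8 probes gave -0.14. By the probe of highest signal, the 5 milk protein genes of this list all had a lower mean. The other 4 had a higher one, with KRT19 (0.12) and EPCAM (0.33) not called. The summed signal of the 9, in multiples of the 75th percentile, was 4344 to 5557 in CONT and 3562 to 4602 in REST. It was carried mostly by the milk protein genes, because KRT19, the brightest of the other 4, had a CONT mean of 6.67. The only adipocyte marker tested, FABP4, fell by 0.35 (summed signal 141 to 210.4 in CONT and 98.0 to 145 in REST), and LEP, PLIN1 and CIDEC were not well above background. Of 7 myoepithelial markers, ACTA2 (-0.38) and CNN1 (-0.53) were called lower, while 4 of the 7 had a higher mean and their median was 0.04 (summed signal 118 to 220.0 and 108 to 207). VWF (0.54), 1 of 6 endothelial markers, and CD3E (0.35), 1 of 6 leukocyte markers tested, were called higher, and 3 of the 6 leukocyte markers had a lower mean (median 0.06). That split depends on the probe: PTPRC gave -0.15 on its probe of highest signal but 0.30 and 0.33 on the others, and CD14 gave -0.09 and 0.03. The endothelial and leukocyte lists had summed signals of 10.1 to 13.4 against 11.9 to 14.4 and of 18.1 to 27.6 against 22.5 to 29.0. CKM (-0.36) was called lower among 2 tested muscle markers (summed signal 2.05 to 3.73 and 1.72 to 2.94), and MB, MYH2, TNNT3 and TNNC2 were not well above background. In limma, 0 of 6 fibroblast markers and 0 of 1 erythrocyte marker (HBA) were called, with or without pairing, and 2 and 1 of these had an unadjusted p under 0.05 in the paired fit, all for a lower signal. The fibroblast markers had a median change of -0.36, with 4 of 6 lower, and the dimmest of 3 COL1A1 probes was called lower (-0.39, adjusted p 0.0782). The fibroblast and erythrocyte lists had summed signals of 34.2 to 63.9 against 26.4 to 73.5 and of 13.6 to 19.9 against 10.3 to 20.3.

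Without any scaling between arrays, the median of all tested genes was 0.29, and CS (0.02) and IDH3B (0.04) were no longer below 0, nor were IDH3A (0.21), SDHB (0.19) and FH (0.28). Set against that median, the 9 genes had the differences seen with the 75th percentile shift, which are identical by construction because 1 constant is subtracted per array, between -0.57 (SDHA) and -0.01 (FH). SDHA was lower even without scaling, by 0.28 (adjusted p 0.0476, within the range over fits given for SDHA). With quantile normalization the 9 genes lay between -0.56 and -0.01 relative to the median of all genes, and with normexp background correction and the 75th percentile shift between -0.44 and 0.12, where FH was above it.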

How the data were processed

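Biopsies of 6 Holstein cows in 2 periods gave 12 one-colour (Cy3) arrays, and groups, cows and periods were taken from the labels. Per the file headers, the authors extracted spot intensities with Agilent Feature Extraction (11.0.1.1, version 11 in the submitters' processing notes). The deposited processed intensity is background-subtracted, spatially detrended, linear and not scaled between arrays, and the deposited table of the series equals it in all 45220 cells of each array. The study's methods shift arrays by the 75th percentile, use a moderated test with Benjamini-Hochberg adjustment at 0.10 and do not state pairing.

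Here log2 processed intensity was averaged over repeat spots (50 probes), after leaving out 1 to 13 spots per array marked as outliers, and each array was shifted by its 75th percentile over probes other than controls. A probe was tested when well above background on every array of at least 1 group (19406 of 43653). REST minus CONT was fitted with limma 3.58.1 in R 4.3.3 (lmFit, eBayes) with the cow as a fixed block, two-sided, threshold 0.1 over all tested probes. The pairing comes from the animal labels: deviations from the group means correlated with r of 0.356 to 0.574 between samples of a cow and of -0.33 to 0.135 between cows. A gene was called by its tested probe of highest mean signal.

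Symbols came from the RefSeq transcript named for a probe, matched to a reference table (27131 probes, 12787 genes). That table's assembly is not the array's, so no coordinates are given, and no sequences were used here. The fit was tested on simulated data. The 9 genes, the lists, the tests and the alternatives were chosen with earlier results of these data known. The values of 1 of the 13 other cycle genes are not reported here, although the counts and medians include it. Named genes were the 9, the tested genes of the 13 other cycle genes, at most 4 called genes of each linked list by absolute change, and the 5 genes of closest pattern. Other genes are given as examples of their lists and were chosen after their values were seen. Alternatives were tried 1 at a time: other scaling, normexp with an offset of 50 on the raw median intensities (the files used here hold no mean), other filters, blocks, moderation and threshold, and each cow left out. Precision is limited by the number of arrays. Python 3.11.15, pandas 2.3.3, scipy 1.17.1 and matplotlib 3.10.9 were also used.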

Additional observations from a re-analysis of the deposited data

Results flagged for a closer look

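Among the groups of 6 values for the 9 genes and the 13 other cycle genes (CONT, REST and the change within a cow), 66 groups were examined for a sample set apart from the others, by the gap to its nearest neighbour over the range of the group (above Dixon's 95% critical value, which chance passes in about 1 of 20 groups, or 3.3 of 66). There were 5, each of them the lowest sample. SDHA in CONT was 5.62 in cow 1 and 5.86 to 5.96 in the other cows (0.69). OGDH in CONT was 3.52 in cow 5 and 3.89 to 4.003 in the others (0.767). IDH3B in REST was 2.24 in cow 2 and 2.36 to 2.42 in the others (0.643). IDH2 in REST was -0.71 in cow 4 and 0.10 to 0.37 in the others (0.751). SUCLA2 in REST was -0.85 in cow 6 and -0.31 to -0.21 in the others (0.845). The reason for these values was not tested.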

How the results depend on the processing

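The number of arrays limits these results, and all 6 calls among the 9 genes depended on the filter, and 5 of them also on single cows. Of the 9 genes, 6 were called in the paired fit. The count was 0 when all dim probes were tested too (with 6 of 9 at an unadjusted p under 0.05 in limma; the unpaired fit called 4 and the test without moderation 5), 2 without scaling (SDHA lower, FH higher), 3 with normexp and the 75th percentile shift, and 1 to 6 when 1 cow was left out. Of all tested genes, 2.02% were called lower and 57.9% higher without scaling, and 7.36% lower with normexp and the shift. When 1 cow was left out, 3.29% to 9.63% were called lower. The median change of the 9 genes was 0.020 without scaling and -0.32 to -0.23 when 1 cow was left out. Without the replicate block, that is without pairing, 4 were called.

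Over all probes 3105 were called. This count was 1534 at an adjusted p under 0.05, 388 with dim probes tested, 837 without the replicate block, 11729 without scaling (3.41% of them lower, against 54.8% with the shift, and 46.0% with normexp and the shift), 1899 with the slide as a block, 1853 by the test without moderation, and 1044 (without cow 2) to 3292 when 1 cow was left out. Without cow 1 it was 1531 and without cow 4 it was 1192.

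Of the 13 other cycle genes, 2 were called in the paired fit. The count was 1 at an adjusted p under 0.05, 0 with dim probes tested (3 lower at an unadjusted p under 0.05 in limma), 1 without the replicate block, 7 without scaling (1 lower and 6 higher), 1 with normexp and the shift, 1 with the slide as a block, and 1 to 3 when 1 cow was left out. Of all tested genes, 2.02% were called lower and 57.9% higher without scaling. The share called lower was 2.81% without the replicate block, 7.36% with normexp and the shift and 5.9% with the slide as a block. It was 3.29% to 9.63% when 1 cow was left out. The median of the 13 genes was 0.18 without scaling and -0.13 to -0.08 when 1 cow was left out.

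Signs of single genes turned without scaling for CS (0.020), IDH3B (0.043), SDHC (0.068), SUCLG2 (0.080), DLD (0.10), SDHAF3 (0.13), SDHD (0.18), SDHB (0.19), IDH3A (0.21), SDHAF2 (0.23), SDHAF1 (0.26) and FH (0.28), where all genes shifted up by a median of 0.29. They turned with normexp and the shift for DLST (-0.077), FH (0.13), SDHAF1 (0.022), SDHAF2 (0.023) and SUCLA2 (-0.029), and with normexp and quantile normalization for FH (0.049) and SUCLA2 (-0.011). Leaving out 1 cow gave ranges across 0 for DLST (-0.064 to 0.19), FH (-0.056 to 0.036), IDH3A (-0.19 to 0.057), IDH3G (-0.021 to 0.065), SDHAF1 (-0.074 to 0.0028) and SUCLA2 (-0.069 to 0.092). Of these genes, CS and IDH3B were called in the paired fit. The causes of these differences were not tested. Testing dim probes adds probes to the adjustment, but the moderated SE changed too, for CS from 0.084 to 0.094, and these were not separated.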
